A study of Mus musculus with 8 samples.

Results

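The 10 genes described here are used to recognise the mural cells of brain vessels, the pericytes of capillaries and the smooth muscle cells of arteries and arterioles. They were taken as a list of symbols (Pdgfrb, Pdgfb, Rgs5, Vtn, Abcc9, Notch3, Higd1b, Acta2, Myh11 and Tagln), and all 10 were found among the 54232 genes of the deposited counts. Their levels were followed per library in mural-like nuclei and in 11 other classes of nuclei. Single-nucleus RNA sequencing had been run on perilesional forebrain, dissected as a cube of 2 mm, from male Swiss Webster mice labelled 10 weeks old. The design crosses 2 operations, TBI (traumatic brain injury) and BCAS, and each of its 4 groups (neither operation, called control, either one alone, or both, called BCAS+TBI) had 2 libraries labelled as biological replicates. BCAS is not spelled out in the labels, and the title of the study names cerebral hypoperfusion, a lasting shortage of blood flow to the brain. No genotype or transgene is named, and the operation the controls had, the delay before tissue was taken and the number of mice behind a library are not given in the sources used here.

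Mural cells wrap the endothelial tube and share a basement membrane with it. Endothelial cells release platelet-derived growth factor B (Pdgfb), which holds pericytes at the vessel through the receptor tyrosine kinase Pdgfrb, and the Notch3 receptor is needed to keep arterial smooth muscle. Pericytes are further known for Rgs5, a brake on G protein signalling, Vtn, which encodes the matrix protein vitronectin, Abcc9, the sulphonylurea receptor subunit of an ATP-sensitive potassium channel, and Higd1b, a small mitochondrial protein. Smooth muscle is recognised by its contractile apparatus, with Acta2 (smooth muscle actin), Myh11 (smooth muscle myosin heavy chain) and Tagln (transgelin).

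Libraries held 28118725 to 56135192 unique molecular identifiers (UMIs), and 5030 to 7147 nuclei of each were kept. They fell into a set of 4 with lower totals (control 1, BCAS 1, TBI 1 and BCAS+TBI 2) and a set of 4 with higher totals, each with 1 library of every group. The sets also differed in the mitochondrial share of UMIs before filtering, at 1.20 to 2.77% in the lower-depth set and 0.511 to 1.04% in the other. Any pair of libraries shared 5 to 20 cell barcodes. Clusters were built without the 10 genes and named from markers that include none of them. Mural-like nuclei numbered 448 of 45464 (0.985%), with 40 to 86 in a library and a median of 841 UMIs per nucleus. Levels are given as CPM, the usual depth-scaled count in which the UMIs of a gene are divided by all UMIs of that class and library. They are compared between nuclei and not between genes, since the yield of UMIs per transcript was not measured. Markers of other cells were also present in the mural-like sums. The 9 endothelial markers all had UMIs there and summed to 253 to 722 CPM per library, 6 of 7 fibroblast markers (not Lum) summed to 594 to 997 CPM, all 6 oligodendrocyte markers summed to 344 to 963 CPM (344 and 420 CPM, the lowest, in BCAS+TBI), and all 4 excitatory neuron markers summed to 103 to 266 CPM, against 11295 to 16474 CPM for the 15 mural markers. The part of these other markers in the results below was not tested.

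Among the 12 named classes, 9 of the 10 genes were highest in mural-like nuclei and Pdgfb was highest in endothelial-like nuclei. The ligand was thus highest in one vascular class and its receptor in the other. Pdgfrb reached 1713 ± 402 CPM (SD, n = 8 libraries) in mural-like nuclei, 13.7 times the 125 ± 62.1 CPM of fibroblast-like nuclei. Astrocyte-like nuclei followed with 99.7 ± 23.2 CPM, so these neighbours in the order overlapped. Pdgfrb UMIs were found in 73.0% of mural-like, 20.4% of fibroblast-like and 16.8% of astrocyte-like nuclei, and in 1.42% of endothelial-like nuclei. After each nucleus was thinned to 500 UMIs the shares were 54.5%, 6.64%, 4.90% and 0.46%, in the same order. The median depths were 841, 1706, 1873 and 1035 UMIs. Pdgfrb in excitatory neuron-like nuclei was 2.64 ± 0.59 CPM.

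Pdgfb (chromosome 15, 79995874 to 80014977, minus strand, GRCm38) varied little in size across libraries in the endothelial-like nuclei but followed the library set. It read 139 and 187 CPM in the control libraries 1 and 2, 167 and 187 in BCAS, 174 and 192 in TBI, and 207 and 173 in BCAS+TBI. The lower-depth set lay at 139 to 174 CPM and the other at 187 to 207 CPM, without overlap. How many other genes of these nuclei separate by set was not computed. All 4 groups overlapped, with a mean of 178 ± 20.2 CPM (SD, n = 8) from 375 UMIs. Microglia-like nuclei came next with 99.2 ± 18.7 CPM, below the endothelial-like value in every library, and choroid plexus-like nuclei held 59.98 ± 34.6 CPM. Mural-like nuclei had 12 Pdgfb UMIs in all, with 3 libraries at 0. Excitatory neuron-like nuclei were low, at 11.6 ± 1.45 CPM, but because of their number and depth they held 46.1% of all Pdgfb UMIs in the data, against 11.9% in endothelial-like nuclei.

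Rgs5 stood apart from the other pericyte genes by its level in the endothelium. It measured 1498 ± 443 CPM in mural-like and 536 ± 242 CPM in endothelial-like nuclei, 35.8% of the mural level, and the 2 ranges did not overlap (897 to 2180.1 and 252 to 871 CPM). The same percentage was 1.93% for Vtn, 0.835% for Abcc9, 0.659% for Pdgfrb, 0.984% for Notch3 and 4.19% for Higd1b. The 15 mural markers summed to 1317 to 2329 CPM per library in endothelial-like nuclei, and 1027 of these nuclei had a UMI of them. Only 1 of the 15 was raised at least 2-fold over the other clusters and found in at least 10% of these nuclei. The sum was not split by marker, and whether endothelial nuclei express such a marker themselves was not tested. A marker UMI therefore does not show that mural RNA was present. In the 239 endothelial-like nuclei with no UMI of the 15 mural markers Rgs5 was 450.4 ± 218 CPM. Those 239 were shallower (median 727 against 1125 UMIs), so a missing marker UMI does not show that mural RNA was absent. Whether mural RNA remained in them was not tested. A UMI of Rgs5 was found in 20.6% of endothelial-like nuclei, as against 1.90% of the deeper excitatory neuron-like nuclei. The endothelial level moved with the library set: the 4 libraries of lower depth read 252 to 433 CPM and the other 4 read 622 to 871 CPM. Depth, the mitochondrial share and any other difference between the sets cannot be told apart here. The share of all genes that separate by set in these nuclei was not computed.

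Vtn was highest in mural-like nuclei (3825 ± 1184 CPM) and second in fibroblast-like nuclei (401 ± 91.7 CPM), where 33.9% of nuclei had a UMI. Notch3 had a second site of expression in astrocyte-like nuclei, at 63.2 ± 10.97 CPM against 1338 ± 344 CPM in mural-like nuclei. Abcc9 had the widest gap to the next class among the 10, with 1639 ± 612 CPM in mural-like nuclei, 112 times the next class, microglia-like nuclei (14.7 CPM). That lower level rested on 15 UMIs. Ependymal-like (13.8 CPM, 9 UMIs) and endothelial-like nuclei (13.7 CPM, 37 UMIs) lay close to it. Higd1b was 390.0 ± 266 CPM, 23.8 times the endothelial-like level. Vtn and Higd1b were each higher in all 4 libraries of the lower-depth set than in all 4 of the other. For Vtn the ranges in mural-like nuclei were 4039 to 5659 and 2226 to 3336 CPM, and for Higd1b 365 to 909 and 115 to 281 CPM. The share of all genes that separate by library set was not computed, so this is not read as a trait of these genes.

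**Figure D1:**
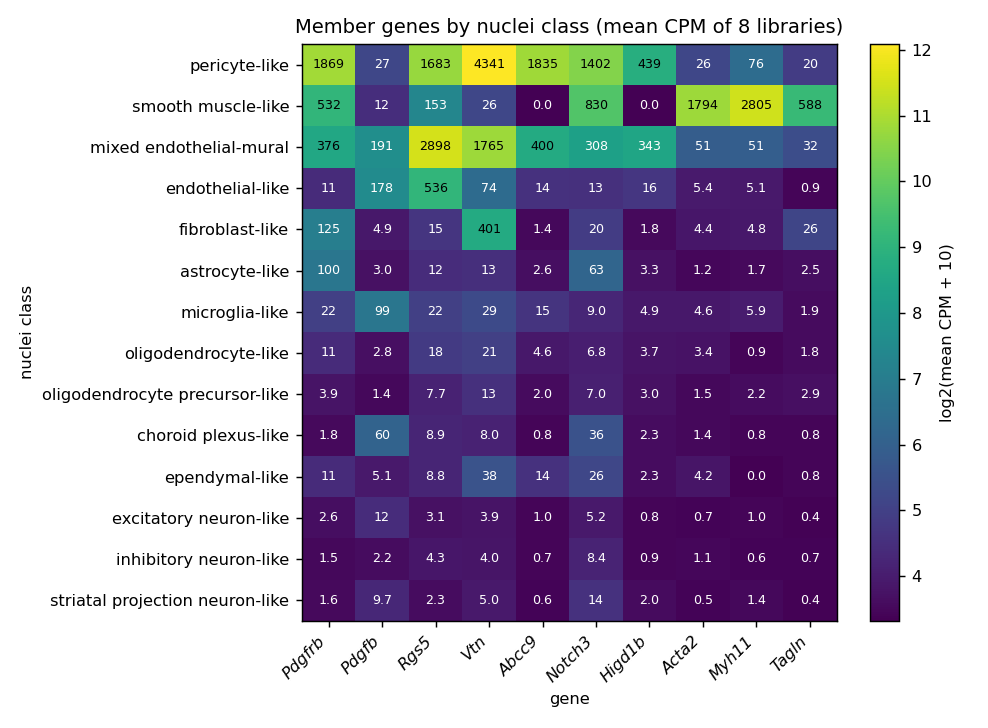
Mean level of each gene (columns) in each class of nuclei (rows), as the mean CPM of 8 libraries printed in the cell and as log2(CPM + 10) in colour. The smooth muscle-like row holds Acta2, Myh11 and Tagln, and also Notch3 (830 CPM), Pdgfrb (532 CPM) and Rgs5 (153 CPM). Abcc9 and Higd1b are at 0 there. Pdgfb is bright in the endothelial-like row (178 CPM) and in the cluster with both endothelial and mural markers (191 CPM).

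**Figure D2:**
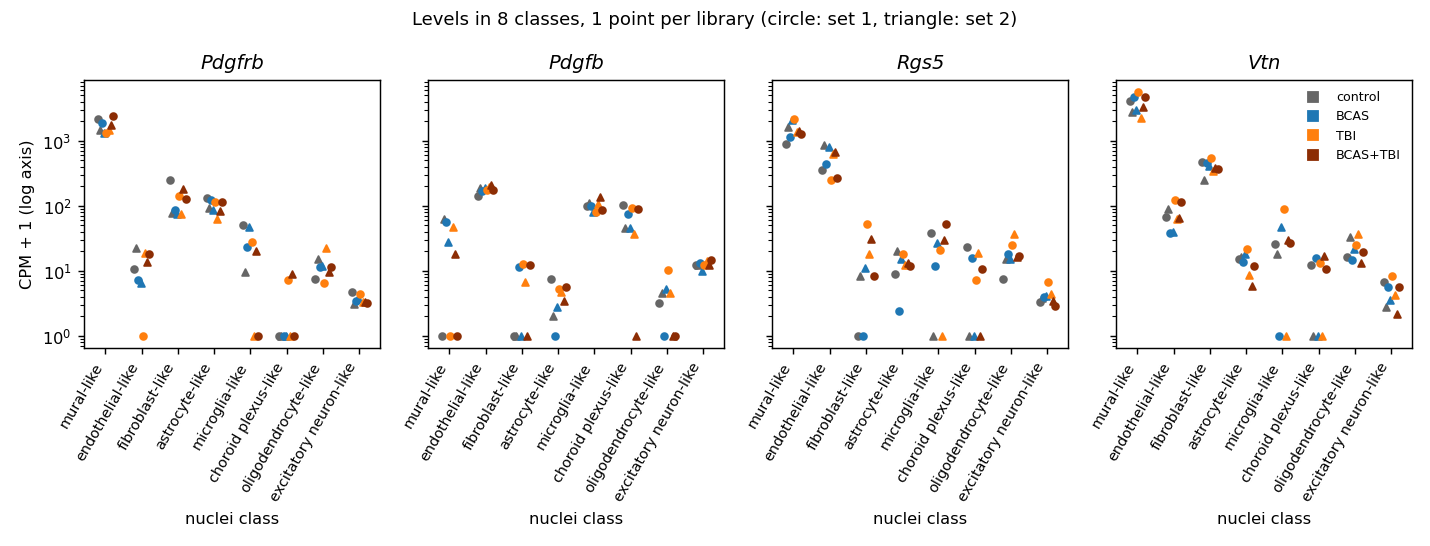
Level of Pdgfrb, Pdgfb, Rgs5 and Vtn in 8 classes (horizontal axis) as CPM + 1 on a log axis, 1 point per library, coloured by group, with circles for the lower-depth and triangles for the higher-depth library set. The endothelial-like Rgs5 points separate by set (252 to 433 and 622 to 871 CPM), and so do the endothelial-like Pdgfb points, over a narrower range (139 to 174 and 187 to 207 CPM). The share of all genes that do so was not computed.

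One cluster of 170 nuclei carried both endothelial and mural markers and was kept apart from both classes. Its median of 5110.5 UMIs per nucleus exceeded that of the mural-like nuclei (841), and its median doublet score was 0.0687. It held 53.3% of all Rgs5 UMIs, 51.2% of Higd1b, 36.1% of Vtn and 29.6% of Abcc9, so a large part of the pericyte gene signal in these libraries lay outside the mural-like class. Rgs5 in it was 2898 ± 798 CPM, 193% of the mural-like level, whereas Abcc9 (400.1 CPM) was 24.4% and Pdgfrb (376 CPM) 21.9% of that level. Vtn in it was 1200.5 to 1565 CPM in the 4 libraries with BCAS and 1842 to 2534 CPM in the other 4, without overlap and with no test. This gene was singled out after its values were seen. The share of all genes that separate in this way was not computed for this cluster, which had 12 to 37 nuclei in a library. The difference is therefore not read as an effect of BCAS. The cluster made up 0.472% of control, 0.350% of BCAS, 0.401% of TBI and 0.285% of BCAS+TBI nuclei (means of 2 libraries).

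Within the mural-like class the genes divided the nuclei into pericyte-like and smooth muscle-like subclusters, which were built and named without them. The 404 pericyte-like nuclei carried Pdgfrb (1869 ± 382 CPM), Vtn (4341 ± 1485), Abcc9 (1835 ± 604), Rgs5 (1683 ± 552) and Higd1b (439 ± 292). The 44 smooth muscle-like nuclei carried Myh11 (2805 ± 1431 CPM), Acta2 (1794 ± 828) and Tagln (588 ± 378). Acta2 was 68.0 times, Myh11 36.8 times and Tagln 30.1 times as high in smooth muscle-like as in pericyte-like nuclei. In pericyte-like nuclei these levels rested on 9 UMIs of Acta2 (2 libraries at 0), 28 of Myh11 (1 at 0) and 5 of Tagln (5 at 0), so the ratios are imprecise. Notch3 was shared, at 830.2 ± 503 against 1402 ± 373 CPM. The smooth muscle-like nuclei also had Pdgfrb at 532 ± 826 CPM (19 UMIs) and Rgs5 at 153 ± 206 CPM (11 UMIs). Neither Abcc9 nor Higd1b had a UMI among the 45759 of the smooth muscle-like nuclei. With a floor of 3 UMIs over all 8 libraries (65.6 CPM), Abcc9 was at least 28.5-fold and Higd1b at least 5.54-fold higher in pericyte-like nuclei, from their levels over all 8 libraries together (1868 and 363 CPM).

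In single nuclei the division depended on which pericyte genes were counted. Of the 44 smooth muscle-like nuclei, 39 had a UMI of Acta2, Myh11 or Tagln and none of Abcc9, Vtn or Higd1b, 2 had both kinds and 0 had the pericyte genes alone. Of the 404 pericyte-like nuclei, 357 had the pericyte genes alone, 21 both and 7 the contractile genes alone. With Pdgfrb and Rgs5 counted as well, 23 of the 44 smooth muscle-like nuclei had contractile genes alone, 18 both and 1 pericyte genes alone, since 29.5% of them had a UMI of Pdgfrb and 15.9% one of Rgs5. These subclusters are a description, since genes that vary with the members were among those clustered. Of the 3 pericyte-like subclusters, 1 of 38 nuclei held 15194 CPM of Vtn, 8067 of Rgs5 and 2791 of Higd1b, against 3807, 1737 and 267 CPM in the subcluster of 154 nuclei and 3281, 969 and 344 CPM in that of 212. These are means over libraries, and the subcluster of 38 had 1 to 11 nuclei in a library, with 1 each in control 1, control 2 and BCAS 1. Over all libraries together it held 11960 CPM of Vtn, 7363 of Rgs5 and 2081 of Higd1b. The same levels were 4081, 1206 and 297 CPM in the subcluster of 154, and 2644, 1151 and 141 CPM in that of 212. The subcluster of 154 had 31 to 38 nuclei in each lower-depth library and 2 to 7 in each of the others, and that of 212 had 0 to 8 and 31 to 61.

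Smooth muscle genes are controlled through the CArG box, the element bound by serum response factor. The promoter of Acta2 (gene at chromosome 19, 34241090 to 34255590, minus strand) is shown with that of Myl9, a regulatory myosin light chain of the same apparatus, because both hold a pair of matches to this element. Myl9 was chosen after its matches were seen. RefSeq promoters of 300 bases (GRCm38.p6) were matched for 5 of the 10 genes, and matches in which at most 1 core base is neither A nor T are in capitals.
Acta2, chr19:34255386-34255469, minus strand: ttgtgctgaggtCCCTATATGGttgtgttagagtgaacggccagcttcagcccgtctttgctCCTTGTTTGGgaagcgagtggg
Myl9, chr2:156775291-156775386, plus strand: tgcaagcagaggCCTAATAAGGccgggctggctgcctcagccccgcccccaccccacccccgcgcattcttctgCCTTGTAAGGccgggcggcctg
The Acta2 matches begin 84 and 34 bases before the start in the RefSeq table (34255373), which lies 217 bases inside the GENCODE gene given above, so the printed stretch is within that gene and overlaps an exon of it. Those of Myl9 begin 161 and 99 bases before its RefSeq start (156775464), 44 bases inside the GENCODE gene, and the printed stretch ends before that gene. The pattern reads the same on both strands. Of 32851 promoters, 9.98% held at least 1 such match and 0.822% at least 2, and 1.63% held 1 with a core of A and T only, as Myl9 does. The promoters of Rgs5, Vtn, Abcc9 and Notch3 held none, which says only that these letters are not in the window.

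The comparison of surgeries asked whether each gene differed in mural-like nuclei between groups. Counts summed per library were fitted with edgeR (quasi-likelihood test, 4 groups, 8 libraries). Of the 10 genes, 8 passed the filter on low counts, and Pdgfb and Tagln did not. None was called in any of 7 contrasts (smallest adjusted p = 1.00, Benjamini and Hochberg over 94200 class-gene pairs). The background was 0% in each contrast, because edgeR called no pair of any class. At an unadjusted p under 0.05 edgeR gave 3 of the 8 for BCAS averaged over TBI (background 2.80% of 1108 genes) and 0 for TBI averaged over BCAS (1.44%). It gave 0 for TBI against control (0.993%), BCAS against control (0.903%) and the interaction (1.17%). DESeq2 called none of the 8 genes in any contrast, and at that unadjusted p it gave Abcc9 alone for BCAS averaged over TBI (background 0.812%) and none elsewhere. Its background at that p was 0.271% for TBI averaged over BCAS and 0.181% for the interaction. Set against control, TBI alone had a background of 0.271%, BCAS alone of 0.0903% and both operations together of 0.812%, and both operations set against TBI alone had 0.542%. Over all classes its adjusted calls were 0.00318% of pairs for BCAS against control, 0.00106% for the interaction and 0% in the other 5 contrasts. In no gene of the 10 did all 4 libraries with BCAS, or with TBI, lie above or below the other 4. The background of such genes was 0.632% above and 1.08% below for BCAS, and 0.812% above and 1.17% below for TBI. The median log2 fold change of the 8 was 0.05 for BCAS and 0.11 for TBI, against 0.0029 and 0.03 over all genes tested.

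**Figure D3:**
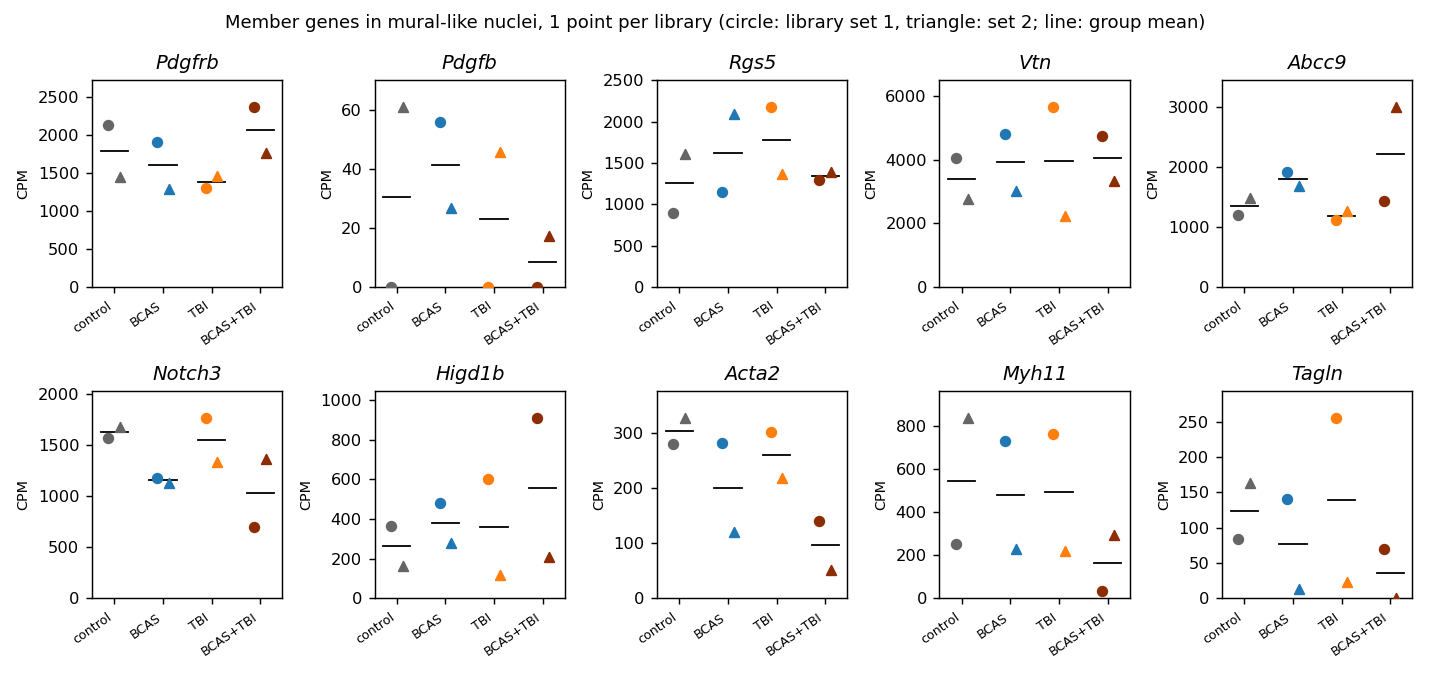
Level of each of the 10 genes in mural-like nuclei (CPM, from 0) in the 4 groups, 1 point per library with circles for the lower-depth and triangles for the higher-depth set, and a line at the group mean of 2 libraries. Acta2 has its lowest group mean in BCAS+TBI (51.6 and 139.9 CPM), and for each of the 10 genes the libraries with and without a surgery overlap.

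Abcc9 (chromosome 6, 142587862 to 142702315, minus strand) had the smallest unadjusted p-value for BCAS among the 8 genes. It read 1206 and 1491 CPM in control, 1912 and 1685 in BCAS, 1113 and 1262 in TBI, and 3009 and 1433 in BCAS+TBI. Among the libraries with BCAS, 3 lay above all 4 without it, and BCAS+TBI 2 lay within their range. The means were 2010.0 ± 694 and 1268 ± 161 CPM (SD, n = 4 each), a log2 fold change of 0.65 (SE 0.24, edgeR adjusted p = 1.00). Within the lower-depth set the means were 1673 and 1159.6 CPM, and within the other 2347 and 1377 CPM. Without BCAS+TBI 1 the log2 fold change was 0.40 (SE 0.25). In the pericyte-like nuclei alone the means were 2156 ± 719 CPM with BCAS and 1514 ± 247 CPM without, and the libraries overlapped. Their ratio was 1.42, against 1.58 in the whole mural-like class.

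Acta2 gave a log2 fold change of -1.14 for BCAS (SE 0.45, edgeR adjusted p = 1.00), which the test did not call. Its levels were 280.5 and 327 CPM in control, 281 and 120.4 in BCAS, 301 and 218 in TBI, and 51.6 and 139.9 in BCAS+TBI. Of the libraries with BCAS, BCAS 1 alone lay within the range of those without (148 ± 96.4 and 282 ± 46.5 CPM). The values behind this rest on 84 UMIs. Within the lower-depth set the means with and without BCAS were 211 and 291 CPM, and within the other 86.0 and 272 CPM. The log2 fold change was -0.72 (SE 0.49) without BCAS+TBI 1, -0.82 (SE 0.49) without BCAS 2 and -1.86 when nuclei were gated one by one, a set of 1172 of which 426 were mural-like.

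Notch3 (chromosome 17, 32120820 to 32166852, minus strand) read 1571 and 1675 CPM in control, 1181 and 1123 in BCAS, 1763 and 1331 in TBI, and 1359 and 699 in BCAS+TBI. The libraries with BCAS averaged 1091 ± 279 CPM and those without 1585 ± 186 CPM, and BCAS+TBI 1 overlapped TBI 2. In the pericyte-like nuclei alone the ranges of Notch3 narrowly missed each other, at 730.1 to 1402 CPM with BCAS and 1429 to 1870 CPM without. The other genes described here all overlapped in these nuclei, and Notch3 was singled out after the values were seen. The background of genes lower in all 4 libraries with BCAS was 1.08% in the mural-like class and was not computed for its pericyte-like nuclei. The separation is therefore not read as an effect of BCAS. The edgeR log2 fold change without smooth muscle-like nuclei was -0.57 (SE 0.25, adjusted p = 1.00). In the whole mural-like class it was -0.55 (SE 0.25, edgeR adjusted p = 1.00). It was -0.40 (SE 0.27) without BCAS+TBI 2 and -0.25 (SE 0.51) with the gate on each nucleus. Within the sets the means with and without BCAS were 940.2 and 1667 CPM, and 1241 and 1503 CPM.

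Pdgfrb read 2132 and 1450.2 CPM in control, 1912 and 1297 in BCAS, 1299 and 1469 in TBI, and 1771 and 2377 in BCAS+TBI. Rgs5 read 897 and 1614, 1153 and 2086, 2180.1 and 1366, and 1393 and 1294 CPM in the same order. Neither gene separated the groups. For the other 5 genes tested the unadjusted p-value of the BCAS effect was 0.197 or larger. Pdgfrb gave 0.21 (SE 0.28), Rgs5 -0.01 (SE 0.29), Vtn 0.11 (SE 0.37), Higd1b 0.59 (SE 0.64) and Myh11 -0.82 (SE 0.60) on the log2 scale. Myh11 varied within groups as much as between them, with 252 and 837 CPM in control, 731 and 227 in BCAS, 765 and 218 in TBI, and 292 and 34.96 in BCAS+TBI. Tagln, not tested, had 32 UMIs in mural-like nuclei, with 84.1 and 163 CPM in control, 141 and 13.4 in BCAS, 255 and 23.0 in TBI, and 0 and 69.9 in BCAS+TBI. TBI averaged over BCAS gave -0.62 (SE 0.45) for Acta2, 0.13 (SE 0.24) for Abcc9, -0.04 (SE 0.25) for Notch3 and 0.08 (SE 0.28) for Pdgfrb. The interaction of both surgeries gave unadjusted p-values of 0.188 for Pdgfrb and 0.199 for Rgs5 and larger ones for the other 6 (edgeR).

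**Figure D4:**
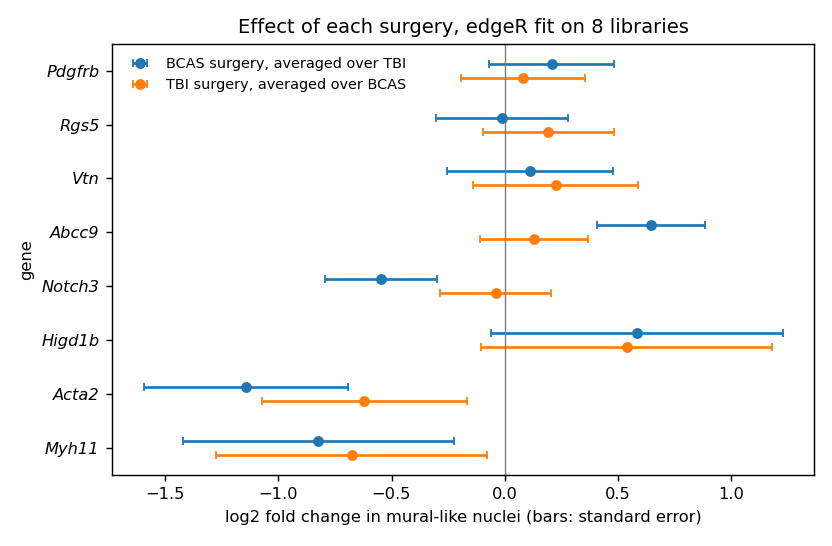
Log2 fold change in mural-like nuclei (horizontal axis) for the 8 genes tested (vertical axis), for each surgery averaged over the other, from the edgeR fit on 8 libraries; bars are standard errors. Abcc9 (0.65), Notch3 (-0.55) and Acta2 (-1.14) lie farthest from 0 relative to their error for BCAS, and none passed the adjusted threshold.

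BCAS+TBI was also set against TBI alone and against control. Against TBI alone Abcc9 gave a log2 fold change of 0.88 (SE 0.34) and Acta2 -1.58 (SE 0.68), 2 of the 8 genes, with a background of 2.89% of genes at an unadjusted p under 0.05. Against control they gave 0.78 (SE 0.34) and -1.76 (SE 0.69), again 2 of the 8 with a background of 2.89%. The contrasts share the BCAS+TBI libraries and each had an adjusted p = 1.00.

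The numbers of smooth muscle-like nuclei did not pass the test for BCAS. They were 4 and 9 in control, 4 and 3 in BCAS, 10 and 9 in TBI, and 3 and 2 in BCAS+TBI, so 12 of 218 mural-like nuclei with BCAS and 32 of 230 without. As a share of mural-like nuclei they were 5.64% ± 1.81 with BCAS and 14.7% ± 6.24 without (SD, n = 4 each). BCAS 1 (8.33%) and control 1 (8.16%) made the ranges overlap. A two-sided exact permutation test over 70 assignments gave p = 0.0571 (0.114 adjusted over both surgeries), where 0.0286 is the smallest it allows. With libraries exchanged only within their depth set the exact permutation p was 0.111 over 36 assignments, where 0.0556 is the smallest possible. Within the lower-depth set the shares with and without BCAS were 6.67% and 14.1%, and within the other 4.62% and 15.2%. These tests were added after the values were seen. Within the smooth muscle-like nuclei Acta2 was 1837 CPM with BCAS (23 UMIs, 95% Poisson interval 1164 to 2756) and 1565 CPM without (52 UMIs, 1168 to 2052), and these intervals cover counting error only. Acta2 without the smooth muscle-like nuclei fell under the count filter and was not fitted, so a change per nucleus and a change in the number of nuclei were not separated by a test.

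**Figure D5:**
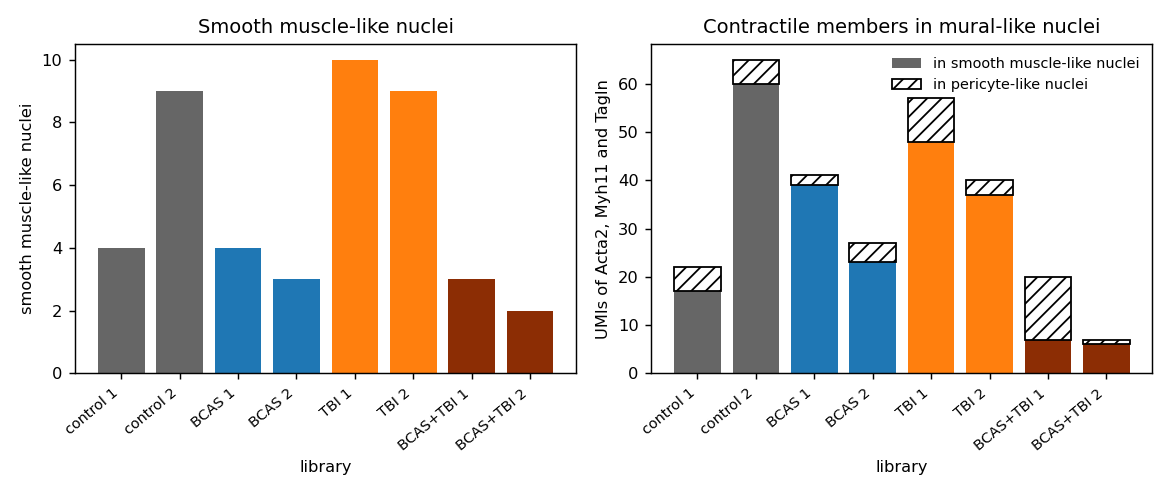
Left, number of smooth muscle-like nuclei in each library (bars from 0). Right, UMIs of Acta2, Myh11 and Tagln together in smooth muscle-like nuclei (filled) and pericyte-like nuclei (hatched) of each library, coloured by group. TBI libraries hold 10 and 9 smooth muscle-like nuclei and BCAS+TBI libraries 3 and 2, and most contractile UMIs lie in these nuclei except in BCAS+TBI 1 (7 against 13).

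The share of all mural-like nuclei did not differ beyond the spread of the libraries. It was 0.967% ± 0.147 with BCAS and 0.980% ± 0.167 without (exact permutation p = 0.914, two-sided), and 1.02% ± 0.184 with TBI and 0.924% ± 0.0965 without (exact permutation p = 0.371). Adjusted over both surgeries the values were 0.914 and 0.743.

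Only part of the genes of the same pathways passed the filter on low counts in mural-like nuclei, as did 1108 of all 54232 genes. Of the PDGF list (6 genes) 2 were tested, of the Notch list (12 genes) 1, of the list of potassium channel subunits and vasoactive receptors (11 genes) 2, and of the contractile list (12 genes) 5, and edgeR called none in any contrast. At an unadjusted p under 0.05 the BCAS effect gave 2 of the 5 contractile genes (background 2.80% of 1108 genes) and none of the others, and the TBI effect none in any list (1.44%). Flna, the actin cross-linker filamin A, had the smallest p for BCAS among contractile genes (log2 fold change -0.94, SE 0.39, edgeR adjusted p = 1.00), and Myl9 for TBI (1.09, SE 0.61). The median of the 5 contractile genes was -0.37 for BCAS, 4 of them lower, against 0.0029 over all genes. In the other lists the smallest p-values belonged to Nrp1, a co-receptor of growth factors (BCAS -0.73, TBI 0.22), Notch1 (0.23 and 0.01) and Kcnj8, the pore that pairs with Abcc9 (0.38 and 0.33).

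Outside mural-like nuclei the 10 genes were testable in 25 further class-gene pairs, and none was called. The smallest unadjusted p-values were for Rgs5 in excitatory neuron-like nuclei, BCAS+TBI against TBI (log2 fold change -1.04, SE 0.38), and for Rgs5 in oligodendrocyte-like nuclei, TBI against control (1.41, SE 0.60), where its mean levels were 3.08 and 17.8 CPM. Vtn in endothelial-like nuclei, BCAS against control, gave -1.06 (SE 0.48). Pdgfb in endothelial-like nuclei gave 0.09 for BCAS and 0.13 for TBI.

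Over the 12 classes, the genes most like Pdgfrb in log2(mean CPM + 10) were Atp13a5 (Pearson r = 0.977 over 12 classes), itself a marker used to name the class, Ednra (0.971) and Heyl (0.931). Those most like Acta2 were Tbx2 (0.996), Aspn (0.994) and Slc38a11 (0.994), and those most like Pdgfb were Ly6e (0.939), Cmtm8 (0.927) and F11r (0.920). Acta2 was 215 CPM in mural-like nuclei and 5.43 CPM in the next class, so its correlations rest mainly on 1 class. Abcc9, with no UMI in smooth muscle-like nuclei, also correlated with Acta2 (Pearson r = 0.990 over 12 classes). Such values do not show that genes share nuclei within the mural-like class. These correlations are descriptions over classes that share libraries and depth.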

How the data were processed

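The deposited files hold raw UMI counts per gene and barcode from Cell Ranger 7.0.0, per the file headers, and the submitters' processing notes name Seurat, GRCm38 and mm10. Of 53390 barcodes, 4922 failed quality limits (500 UMIs, 300 genes, mitochondrial share above 5%). Barcodes over 1% haemoglobin (97, a limit chosen after seeing the data) and the top 6% of doublet scores per library (2907) were removed, which left 45464 nuclei. Clusters (scanpy 1.11.5, 3000 variable genes without the 10 members, resolution 1) were named from fixed markers. A subcluster of 21 neuron-led nuclei was left out of the mural-like class. UMIs were summed per class and library and tested with edgeR 4.0.16 (quasi-likelihood, TMM, count minimum 10, R 4.3.3), with DESeq2 1.42.0 as an alternative. Adjusted p-values cover all class-gene pairs of a contrast. On simulated counts for the BCAS effect in mural-like nuclei (1108 genes) this recovered 0 of 100 genes changed 2-fold and 36 of 100 changed 4-fold, with 0 false calls. With adjustment within the class alone, 23 and 78 of 100 were recovered, with 9 false calls. Named genes were all 10 members, the smallest p per list and surgery, and the 3 genes most alike to Pdgfrb, Acta2 and Pdgfb. Alternatives covered test, scaling, filters, blocks, class definition and each library left out. The members and lists were chosen with earlier results of these data known.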

Additional observations from a re-analysis of the deposited data

How the results depend on the processing

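No member was called in mural-like nuclei in any of the 7 contrasts under the 15 other settings or with any of the 8 libraries left out. Rgs5 for BCAS (-0.01) was 0.0128 with DESeq2, 0.0136 with RLE scaling, 0.0343 with doublets kept, 0.0325 with haemoglobin-rich barcodes kept and 0.20 without nuclei with endothelial markers. The gate on each nucleus gave -0.18 for Rgs5, -0.0381 for Vtn and 0.0154 for Notch3 under TBI. Vtn for BCAS was -0.0889 with neuron-led nuclei kept and -0.0256 without smooth muscle-like nuclei. Endothelial Pdgfb was -0.0212 for TBI with doublets kept and -0.23 for BCAS without nuclei with mural markers. The BCAS difference in the mural-like share (-0.0126 points) was 0.000333 with the members among the variable genes, 0.0513 with the gate, 0.0216 with neuron-led nuclei kept and 4.80 among vascular-like nuclei (exact permutation p = 0.0571). The cause of these changes was not tested. With each library left out, TBI effects ranged from -0.13 to 0.25 for Pdgfrb, -0.0583 to 0.40 for Rgs5, -0.26 to 0.46 for Vtn, -0.15 to 0.28 for Abcc9, -0.29 to 0.0831 for Notch3 and -0.29 to 0.95 for Higd1b. BCAS effects ranged from -0.24 to 0.20 for Rgs5, -0.16 to 0.55 for Vtn and -0.15 to 1.36 for Higd1b, and the share difference from -0.0695 to 0.0619 points. Replicate numbers did not pair the libraries, since same-numbered deviations correlated at 0.20 to 0.42 among control, BCAS and TBI and at -0.50 to -0.36 with BCAS+TBI. With the replicate block the BCAS effect was 0.62 for Abcc9, -1.16 for Acta2 and -0.56 for Notch3, and 0 members were called. Libraries of the same depth set correlated in all 6 pairs of groups (0.20 to 0.50), and with the set as a block the BCAS effect was 0.65 for Abcc9, -1.16 for Acta2 and -0.52 for Notch3, with 0 members called. The fit on nuclei with at least 1000 UMIs was not run, since some libraries held under 20 such mural-like nuclei. Haemoglobin-rich barcodes, neuron-led nuclei and the fit without smooth muscle-like nuclei were alternatives chosen after seeing the data.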
